A study of Homo sapiens with 6 samples.

Results

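The golgins and Golgi coiled-coil tethers described here are 10 genes, GOLGA1, GOLGA2, GOLGA3, GOLGA4, GOLGA5, GOLGB1, GCC1, GCC2, TRIP11 and GORASP2, out of 57773 in the deposited table. They were taken by gene symbol from a list of names chosen by family and by the measured log2 fold changes between the groups, which were already known, so every difference given for them is a description without a test. The deposited table annotates all 10 to the Golgi apparatus or its membrane. RNA was sequenced from HEK293, a widely used line grown from human embryonic kidney, in 3 libraries whose genotype label is TRDMT1 gene knockdown and in 3 libraries labelled control. TRDMT1 (DNMT2) is a tRNA cytosine methyltransferase, and the study asked what it does in these cells. All 6 libraries share the cell line, the removal of ribosomal RNA and, per the labels, a protocol that names a bisulfite kit for methylation. Whether the counted libraries were treated with that kit is unclear from the sources used here. The means of knockdown and whether a group was 1 culture or clone are not given in the sources used here.

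Some facts of the whole series bear on every value. TRDMT1 itself stood at 5.73, 5.76 and 5.73 CPM in libraries labelled knockdown, against 3.76, 4.63 and 2.91 CPM in libraries labelled control (log2 fold change 0.61 ± 0.21, adjusted p = 0.0705, edgeR). Its level was thus above the controls in every library labelled knockdown, which goes against the label, and groups are named by label throughout. A CPM value is the count divided by the library total, adjusted by TMM normalization. Libraries labelled knockdown held 36455950 to 40088993 counts, and libraries labelled control 24776040 to 26802182. The biological coefficient of variation between libraries was 5.46% among those labelled knockdown and 31.95% among those labelled control, where control replicate 2 stood apart from the others. The 5 marker genes of HEK293 cells were all detected, with summed RPKM of 299 to 309 in libraries labelled knockdown and 355 to 506 in libraries labelled control. Most of the sum was VIM, at 227 to 232 against 263 to 456 RPKM. PAX2 (1.78 to 1.85 against 0.91 to 1.39) and LHX1 (5.36 to 5.80 against 1.66 to 4.48) went the other way. The ranges of NEFL and NEFM overlapped. Of 10 markers of other cell types, HBB was at 0 in every library and the sum over the list was 4.08 to 4.62 RPKM in libraries labelled knockdown and 1.26 to 5.60 RPKM in libraries labelled control, most of it from COL1A1 except in control replicate 2. In bulk RNA, fewer cells of one type and less RNA per cell cannot be told apart.

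Golgins are long, rod-like coiled-coil proteins that stand on the Golgi surface and capture passing transport vesicles. Each is fixed to its own part of the stack at one end, by a membrane anchor, by a partner protein or by a small GTPase, and reaches out with the other end. GOLGA1, GOLGA4, GCC1 and GCC2 carry a GRIP domain at the C-terminal end, which places GRIP golgins on the trans-Golgi through small GTPases such as ARL1, while GOLGA2 and TRIP11 act on the cis side, GOLGA5 and GOLGB1 span the membrane at their C-terminal ends and GOLGA3 is a peripheral golgin. GORASP2 (GRASP55) is no long coiled coil but a stacking protein that holds cisternae together and binds golgins.

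The coding sequences of these genes differ in how much adenine they hold, and much of the description below turns on this feature. The choice of members did not use it directly. Adenine content goes with log2 fold change over all genes tested, and the choice did use log2 fold changes, so the feature is not independent of the choice. To show adenine content, a window of 90 bases was taken from each coding sequence (GENCODE 29). It was the first in-frame window whose adenine count equals the median over all in-frame windows of that sequence. Capitals mark adenine, and sequences run 5′ to 3′. GOLGA4, GOLGB1, TRIP11 and GCC2 come first.
GOLGA4: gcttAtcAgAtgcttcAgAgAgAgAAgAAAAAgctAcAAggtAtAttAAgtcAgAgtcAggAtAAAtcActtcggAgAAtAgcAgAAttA
GOLGB1: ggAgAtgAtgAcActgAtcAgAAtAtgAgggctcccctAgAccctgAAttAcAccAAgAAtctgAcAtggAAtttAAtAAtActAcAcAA
TRIP11: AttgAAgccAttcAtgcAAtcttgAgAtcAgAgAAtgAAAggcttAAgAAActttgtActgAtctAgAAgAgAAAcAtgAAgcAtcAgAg
GCC2: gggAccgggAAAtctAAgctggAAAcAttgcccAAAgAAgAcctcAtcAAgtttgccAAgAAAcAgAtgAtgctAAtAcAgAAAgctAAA
GOLGA1, GCC1, GOLGA2 and GOLGA3 hold less adenine, GOLGA1 the most of these 4.
GOLGA1: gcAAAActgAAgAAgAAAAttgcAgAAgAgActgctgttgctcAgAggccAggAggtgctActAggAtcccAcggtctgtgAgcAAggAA
GCC1: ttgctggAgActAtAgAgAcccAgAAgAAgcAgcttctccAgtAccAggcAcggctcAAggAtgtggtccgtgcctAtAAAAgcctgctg
GOLGA2: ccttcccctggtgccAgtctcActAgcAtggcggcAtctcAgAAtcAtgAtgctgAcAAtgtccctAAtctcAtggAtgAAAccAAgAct
GOLGA3: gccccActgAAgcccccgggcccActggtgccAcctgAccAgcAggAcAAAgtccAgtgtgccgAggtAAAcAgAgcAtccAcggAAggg
Adenine made up 41.1% of the bases of this window in GOLGA4 and GCC2, 40.0% in TRIP11 and 37.8% in GOLGB1. The share was 33.3% in GOLGA1, 26.7% in GCC1, and 25.6% in GOLGA2 and in GOLGA3. Over the whole coding sequence, the lysine codon AAA was 7.54% of codons in GOLGA4, 7.19% in GCC2, 5.91% in TRIP11 and 5.17% in GOLGB1, against 1.597% in GOLGA2, 2.07% in GCC1, 2.20% in GOLGA3 and 3.39% in GOLGA1. The glutamate codon GAA was 11.3% of codons in GOLGA4 and 11.8% in GCC2, but 2.99% in GOLGA2 and 2.58% in GCC1. In these 4 genes the other glutamate codon, GAG, ran the other way. It was 5.17% of codons in GOLGA4 and 4.57% in GCC2, against 11.1% in GOLGA2 and 10.1% in GCC1. GORASP2 was low in both, at 2.88% GAA and 3.10% GAG, and GOLGA5 had 7.25% and 3.28%. GOLGA5, whose sequence is not shown, was near GOLGA1 in adenine, with 34.4% in its window and 3.97% AAA codons. GORASP2, also not shown, had 26.7% and 1.55%.

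All 10 members passed the filter on low counts that left 17805 genes. In the libraries labelled knockdown, 5 members (GOLGA4, GOLGB1, TRIP11, GCC2 and GOLGA5) were called lower and 3 (GOLGA1, GCC1 and GOLGA2) higher by edgeR's quasi-likelihood test at an adjusted p below 0.05, and GOLGA3 and GORASP2 were not called. Over all genes tested 14.7% were called lower and 9.29% higher, or 2613 and 1654 genes, and against the plain library total 1649 (9.26%) were lower and 1888 (10.6%) higher, with 5 and 3 members. The groups did not overlap for 9 members, 5 of them lower and 4 higher in libraries labelled knockdown, beside 26.0% and 23.9% of all genes tested. The median log2 fold change was −0.46 over the members and −0.04 over all genes tested. The list was chosen with this contrast known, so these counts carry no further reading. The members went in opposite directions within the GRIP golgins and within the cis-side golgins, and the decreases, from 1.93-fold to 16.7-fold, were larger than the increases called, from 1.45-fold to 1.54-fold.

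**Figure D1:**
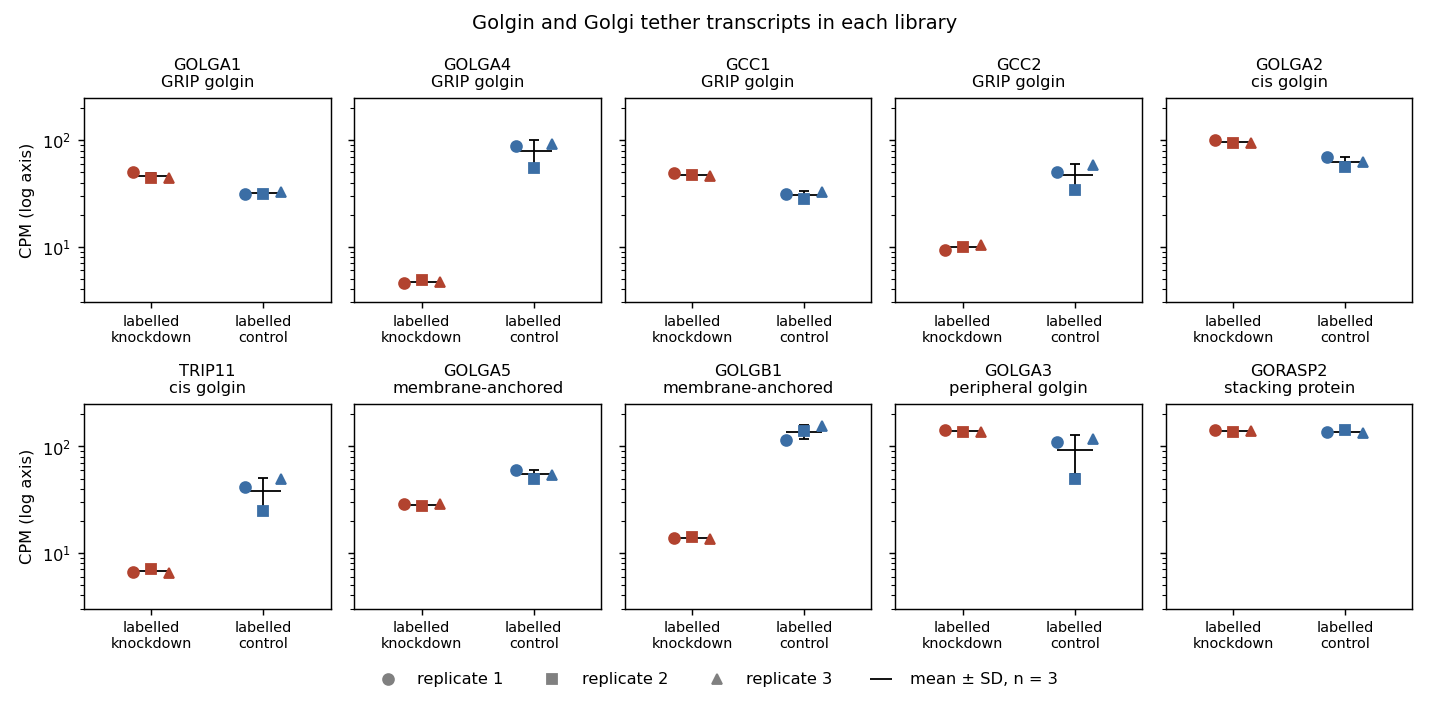
Level of each member in every library, in CPM on a log axis, with the libraries labelled knockdown left of those labelled control; symbols are replicates and the bar is the mean ± SD over 3 libraries. GOLGA4 lies between 4.59 and 4.89 CPM in libraries labelled knockdown and between 54.4 and 92.4 CPM in libraries labelled control, whereas GORASP2 lies between 133 and 144 CPM in all 6.

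Among the 4 GRIP golgins, GOLGA4 and GCC2 were lower and GOLGA1 and GCC1 higher in the libraries labelled knockdown. GOLGA4 (p230, chromosome 3), which works in trafficking at the trans-Golgi, had 4.59, 4.89 and 4.68 CPM in libraries labelled knockdown, against 89.1, 54.4 and 92.4 CPM in libraries labelled control. All 3 libraries labelled knockdown lay far below the lowest control, which was control replicate 2. The log2 fold change, labelled knockdown minus labelled control as everywhere here, was −4.06 ± 0.24 (SE), 16.7-fold lower. The deposited counts behind these values were 177, 191 and 200 in libraries labelled knockdown and 2347, 1094 and 2541 in libraries labelled control. GOLGA4 ranked 15 of 17805 tested genes, counted from the lowest log2 fold change.

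GCC2 (GCC185, chromosome 2), a GRIP golgin that takes part in the capture of endosome-derived vesicles, had 9.43, 10.04 and 10.503 CPM in libraries labelled knockdown, against 50.1, 33.9 and 59.2 CPM in libraries labelled control. The groups were clearly apart and control replicate 2 was again the lowest control. This is a log2 fold change of −2.26 ± 0.22, 4.78-fold lower.

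GOLGA1 (golgin-97, chromosome 9), recruited to the trans-Golgi by ARL1, had 49.9, 44.2 and 44.2 CPM in libraries labelled knockdown, against 31.5, 31.0 and 32.6 CPM in libraries labelled control. The 3 controls were close together and every library labelled knockdown lay above them. Its log2 fold change was 0.54 ± 0.12. GCC1 (GCC88, chromosome 7), a GRIP golgin of endosome-to-Golgi transport, had 49.0, 47.2 and 46.2 CPM in libraries labelled knockdown, against 31.5, 28.4 and 32.8 CPM in libraries labelled control. Its groups were as clearly apart as those of GOLGA1, with a log2 fold change of 0.62 ± 0.12. Both calls ended when any 1 of the libraries labelled knockdown was left out, at 0.49 to 0.57 for GOLGA1 and 0.60 to 0.64 for GCC1, where 1.87%, 1.94% and 1.71% of all genes tested were called higher without replicates 1, 2 and 3. That of GOLGA1 also ended without control replicate 1 (0.57), where 3.64% were called higher. Within single libraries, the RPKM of GOLGA4 was 0.0575 ± 0.0055 times that of GOLGA1 in libraries labelled knockdown and 1.39 ± 0.35 times in libraries labelled control (SD, n = 3 each). The same ratio of GCC2 to GCC1 was 0.0788 ± 0.0065 in libraries labelled knockdown and 0.573 ± 0.116 in libraries labelled control.

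Of the cis-side golgins, GOLGA2 was higher and TRIP11 lower in the libraries labelled knockdown. GOLGA2 (GM130, chromosome 9), which binds the stacking protein GORASP1 and the tether USO1, had 101, 93.9 and 94.9 CPM in libraries labelled knockdown, against 69.5, 55.6 and 62.5 CPM in libraries labelled control. No control reached the lowest library labelled knockdown. The log2 fold change was 0.63 ± 0.12, and this call too ended without any 1 of the libraries labelled knockdown (0.60 to 0.65). TRIP11 (GMAP-210, chromosome 14), whose N-terminal end senses highly curved membranes and whose loss in humans causes a severe skeletal dysplasia, had 6.66, 7.12 and 6.53 CPM in libraries labelled knockdown, against 41.4, 24.8 and 49.4 CPM in libraries labelled control. Its controls spread more widely than its libraries labelled knockdown, and no library labelled knockdown reached them. The log2 fold change was −2.51 ± 0.26, 5.70-fold lower. The RPKM of TRIP11 was 0.0471 ± 0.0035 times that of GOLGA2 in libraries labelled knockdown and 0.410 ± 0.116 times in libraries labelled control.

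Both membrane-anchored golgins were lower in the libraries labelled knockdown. GOLGB1 (giantin, chromosome 3), the longest coding sequence among the members at 9807 bases, had 13.9, 14.1 and 13.5 CPM in libraries labelled knockdown, against 115, 140 and 157 CPM in libraries labelled control. Control replicate 2 was not the lowest control here but lay between the other controls. GOLGB1 thus had a log2 fold change of −3.31 ± 0.15, 9.92-fold lower. GOLGA5 (golgin-84, chromosome 14), which tethers vesicles within the stack, had 28.8, 27.7 and 28.9 CPM in libraries labelled knockdown, against 60.4, 49.96 and 54.1 CPM in libraries labelled control. Its groups were apart by much less than those of GOLGB1. Its log2 fold change was −0.94 ± 0.12, 1.93-fold lower, and it was −0.35 ± 0.12 and not called in the fit with composition and length trends taken out.

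GOLGA3 and GORASP2 were not called. GOLGA3 (golgin-160, chromosome 12), a peripheral golgin that binds dynein, had 144, 138 and 138 CPM in libraries labelled knockdown, against 109, 49.8 and 117.96 CPM in libraries labelled control. Every library labelled knockdown lay above every control, but control replicate 2 lay far below the other controls. The log2 fold change was 0.60 ± 0.30 over all 6 libraries, and 0.30 ± 0.07 and called higher without control replicate 2, where 22.9% of all genes tested were called higher and 25.6% lower. GORASP2 (chromosome 2) had 143, 138 and 138 CPM in libraries labelled knockdown, against 136, 144 and 133 CPM in libraries labelled control. The groups overlapped, with a log2 fold change of 0.02 ± 0.10, the smallest difference among the members. BLZF1 (golgin-45), the golgin to which GORASP2 binds, averaged 6.91 ± 0.30 CPM in libraries labelled knockdown and 24.5 ± 5.98 CPM in libraries labelled control (SD, n = 3 each), a log2 fold change of −1.83 ± 0.21.

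**Figure D2:**
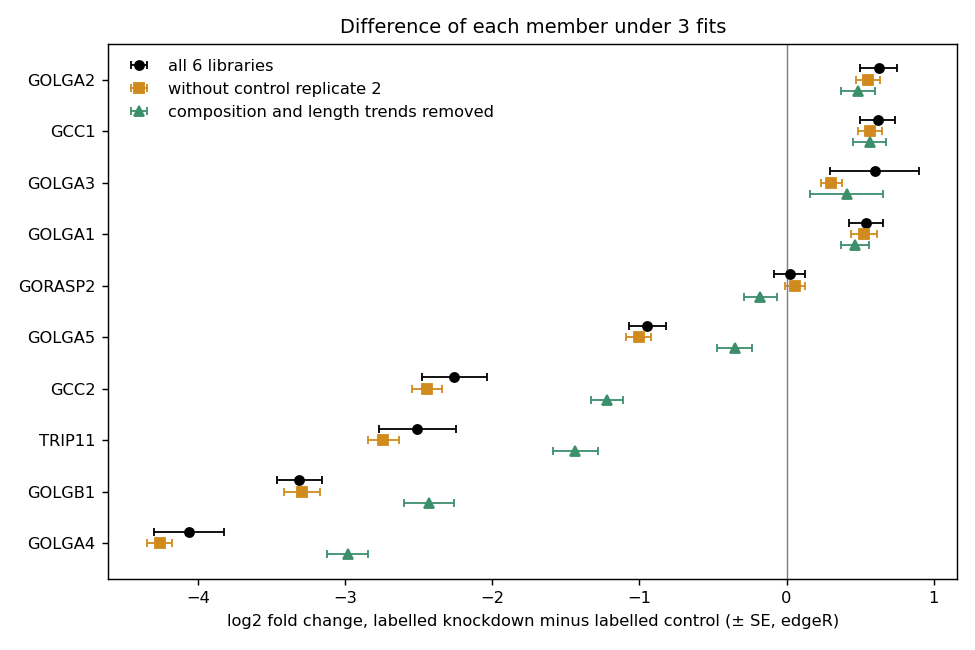
Log2 fold change of each member (labelled knockdown minus labelled control, ± SE, edgeR) over all 6 libraries, without control replicate 2, and with trends in base composition and length removed. GOLGA4, GOLGB1, TRIP11 and GCC2 stay between −4.26 and −1.22 in the 3 fits, and GORASP2 between −0.18 and 0.06.

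Per length, the order of the members differed between the groups. In RPKM, which scales counts by exonic length and library total, the libraries labelled knockdown held GORASP2 at 27.8 ± 0.55, GOLGA2 at 14.7 ± 0.55, GOLGA3 at 14.1 ± 0.30, GCC1 at 10.1 ± 0.27, GOLGA5 at 9.19 ± 0.21 and GOLGA1 at 8.15 ± 0.55 (SD, n = 3). After a gap came GOLGB1 at 1.24 ± 0.03, GCC2 at 0.80 ± 0.05, TRIP11 at 0.69 ± 0.03 and GOLGA4 at 0.47 ± 0.02 RPKM. Only the ranges of GOLGA2 and GOLGA3 overlapped among neighbours in this order. In the libraries labelled control, GORASP2 stood first at 24.3 ± 2.10, followed by GOLGA5 at 15.8 ± 3.11, GOLGB1 at 10.9 ± 2.28, GOLGA2 at 8.55 ± 1.83, GOLGA3 at 8.53 ± 4.12 and GOLGA4 at 7.08 ± 2.58 RPKM. GCC1 at 5.89 ± 1.12, GOLGA1 at 4.99 ± 0.73, TRIP11 at 3.60 ± 1.51 and GCC2 at 3.46 ± 1.27 RPKM came last. From GOLGA5 downwards, every pair of neighbours in the controls had overlapping ranges. GOLGB1 was thus at rank 7 of 10 in libraries labelled knockdown and at rank 3 in libraries labelled control. GOLGA4, GOLGB1, GCC2 and TRIP11 together gave 3.49%, 3.82% and 3.70% of the summed RPKM of the members in libraries labelled knockdown, against 25.4%, 24.97% and 29.7% in libraries labelled control. This share was far lower in each library labelled knockdown, which restates that these are the members with the largest decreases. Control replicate 2 was close to control replicate 1 in this share. The summed RPKM of all 10 was 87.3 ± 2.22 in libraries labelled knockdown and 93.1 ± 19.4 in libraries labelled control (SD, n = 3 each), with overlapping ranges.

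Control replicate 2 departed from the other controls unevenly over the members. Its log2 CPM minus the mean of the other controls was −1.19 for GOLGA3, −0.86 for TRIP11, −0.74 for GOLGA4 and −0.68 for GCC2. For GOLGB1 it was 0.06 and for GORASP2 0.09, and for the other 4 members it lay between −0.24 and −0.05. Over all genes tested, the median of this departure was 0.34 in the quintile with the shortest exonic length and −0.34 in the quintile with the longest, where GOLGA3, GOLGA4, GOLGB1, GCC2 and TRIP11 lie. Without this library the log2 fold changes were −4.26 ± 0.09 for GOLGA4, −2.45 ± 0.10 for GCC2 and −2.74 ± 0.11 for TRIP11, with smaller standard errors than over all 6 libraries.

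The members called lower were those with the highest adenine content, which is a description, since the members were chosen with these differences known. Adenine made up 38.4% of the longest transcript of GOLGA4, 36.4% of GCC2, 36.1% of GOLGB1, 35.4% of TRIP11 and 32.2% of GOLGA5, the 5 members called lower. It made up 28.9% in GOLGA1, 27.2% in GOLGA2, 25.1% in GCC1 and in GORASP2, and 24.1% in GOLGA3. The top quintile of tested genes by adenine content begins at 29.9% and so holds exactly the 5 members called lower. Among the 3461 genes of that quintile the median log2 fold change was −0.60, with 40.2% called lower and 1.73% higher. From the lowest to the highest quintile the medians were 0.25, 0.13, −0.00044, −0.14 and −0.60. Spearman's rho between adenine content and log2 fold change was −0.41 over 17302 genes, which share the same 6 libraries and are not independent replicates. The part of base composition in the differences was not tested.

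**Figure D3:**
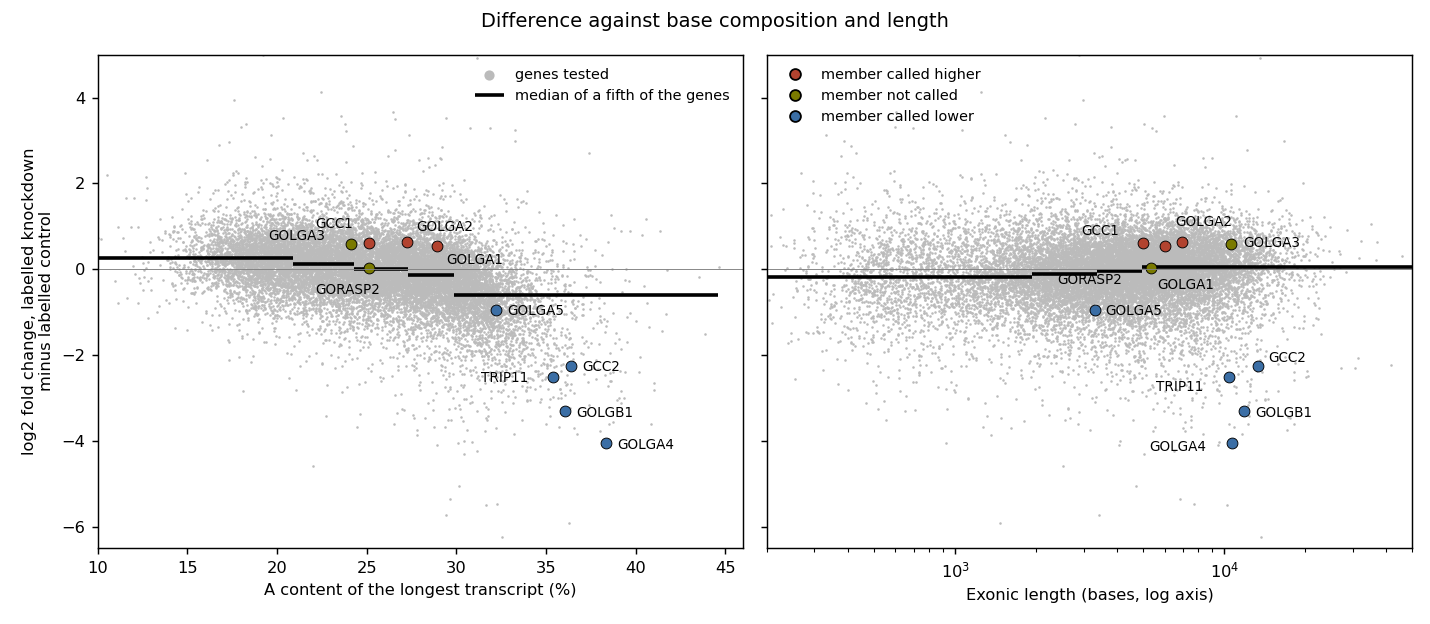
Log2 fold change (labelled knockdown minus labelled control) against the adenine content of the longest transcript in percent (left) and exonic length in bases on a log axis (right), for tested genes in grey and the 10 members in colour; black bars are medians of quintiles of the genes, and a few genes beyond the axes are not drawn. The members called lower sit at 32.2% adenine or more, and the long members GOLGA3 and GOLGA4 lie far apart.

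Exonic length alone did not separate the members called lower from the others. Exonic length in the deposited table was 13282 bases for GCC2, 11853 for GOLGB1, 10723 for GOLGA4, 10550 for GOLGA3 and 10372 for TRIP11, and 3295 to 6961 bases for the others. GOLGA3 and GOLGA4 are thus nearly equal in exonic length, at 0.60 and −4.06 on the log2 scale of differences. Coding length was 9807 bases for GOLGB1, 6729 for GOLGA4, 5937 for TRIP11 and 5052 for GCC2, and 1356 to 4494 for the others. It thus set these members apart, but not GOLGA5, which was also called lower and had 2193 coding bases. The part of length in the differences was not tested. The tested genes in the top quintile of both adenine content and exonic length numbered 925. Their median log2 fold change was −0.63, with 46.2% called lower. GOLGA4, GOLGB1, GCC2 and TRIP11 are among them. The lowest 5% of these 925 genes lay below −2.63, a bound that GOLGA4 and GOLGB1 passed and TRIP11 and GCC2 did not. The 2533 genes of the top length quintile outside the adenine-rich quintile, GOLGA3 among them, had a median of 0.22, with 7.07% called lower. With the trends removed, the log2 fold changes were −2.98 ± 0.14 for GOLGA4, −2.43 ± 0.17 for GOLGB1, −1.43 ± 0.16 for TRIP11 and −1.22 ± 0.11 for GCC2. These 4 were still called lower, and GOLGA1, GCC1 and GOLGA2 higher at 0.47, 0.56 and 0.49, beside 11.2% and 9.33% of all genes tested in that fit. Over the 10 members, Spearman's rho between adenine content and log2 fold change was −0.855 over all 6 libraries and −0.83 with the trends removed. The members were chosen with their differences known, so both values are a description of these 10 genes.

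**Figure D4:**
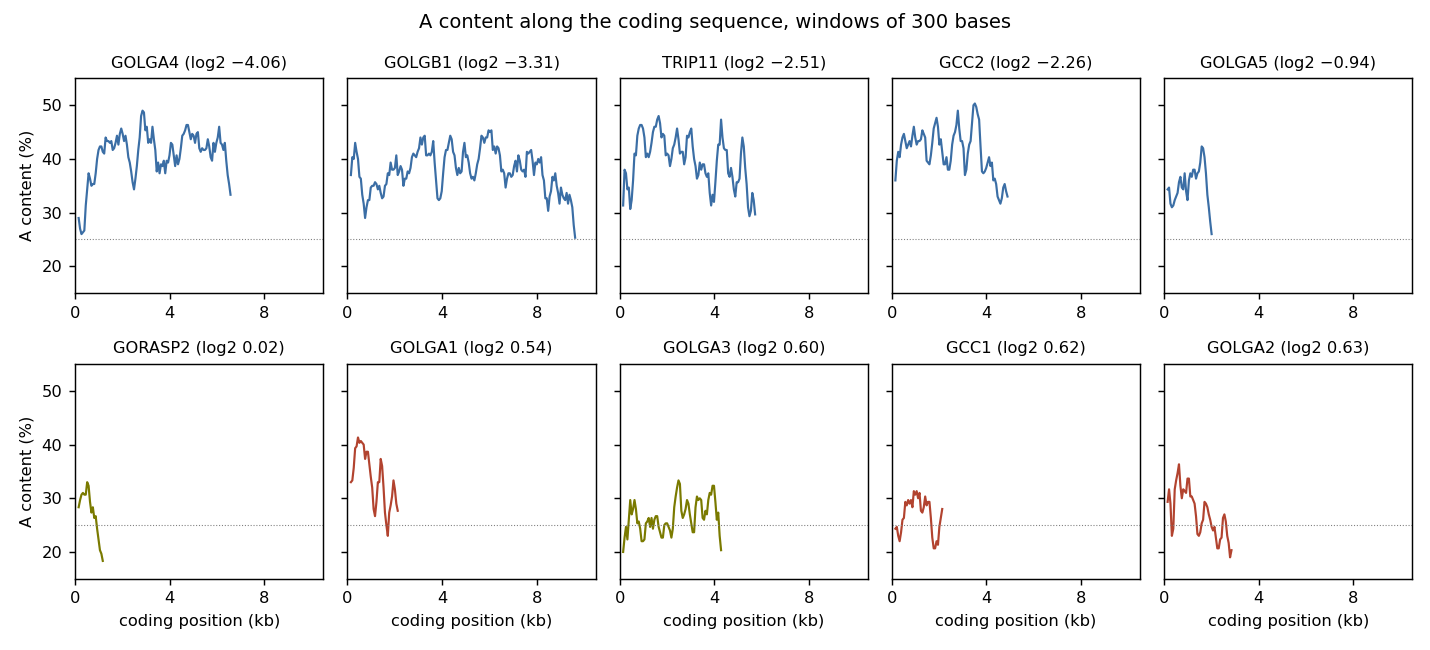
Adenine content in percent along the coding sequence of each member in windows of 300 bases, by position in kilobases, ordered by log2 fold change (in each title) and coloured blue where called lower, red where called higher and olive where not called; the dotted line is at 25%. The median window holds 42.3% adenine in GCC2, 42.0% in GOLGA4, 40.3% in TRIP11 and 37.7% in GOLGB1, against 26.8% in GOLGA2 and 26.3% in GOLGA3.

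The adenine-rich stretches ran through most of each coding sequence and not through a single block. In windows of 300 bases, GOLGA4 ranged from 26.0% to 49.0% adenine with a median of 42.0%, and GCC2 from 31.7% to 50.3%. TRIP11 ranged from 29.3% to 48.0% and GOLGB1 from 25.3% to 45.3%. GOLGA1 reached 41.3% near its start but had a median of 33.2%, close to the 35.2% of GOLGA5. GOLGA2, GOLGA3, GCC1 and GORASP2 never passed 36.3% in any such window. GOLGA1 and GOLGA5, similar in coding length at 2301 and 2193 bases, were 0.54 and −0.94 on the log2 scale of differences.

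A RefSeq promoter (GRCh38.p14, 250 bases before to 50 after the start) was found for 9 of the 10 members, with GOLGA4 unmatched and GOLGA3 given by more than 1 start. Their GC content ran from 55.7% to 73.7%, beside a median of 58.7% over 35116 promoters, and they held 18 to 38 CpG, beside a median of 14. The letters ACGTGGC, the Golgi stress response element, were in promoters of GORASP2, GOLGA1, GOLGA3 and GOLGA5 on one strand or the other, and in 3.22% of all promoters. The letters TGACGTGG were in those of GOLGA1 and GOLGA5 and in 0.729% of all promoters, and there they overlap the element as TGACGTGGC. TGACGTCA, the cyclic AMP response element, was in that of GCC1 and in 1.85% of all. The promoters of GOLGA1 (chr9:124941034-124941333, minus strand) and GOLGA5 (chr14:92794055-92794354, plus strand) are shown because they share this run at nearly the same distance from the start while their transcripts differed in opposite directions, and capitals mark it, on the reverse strand in GOLGA5.
GOLGA1: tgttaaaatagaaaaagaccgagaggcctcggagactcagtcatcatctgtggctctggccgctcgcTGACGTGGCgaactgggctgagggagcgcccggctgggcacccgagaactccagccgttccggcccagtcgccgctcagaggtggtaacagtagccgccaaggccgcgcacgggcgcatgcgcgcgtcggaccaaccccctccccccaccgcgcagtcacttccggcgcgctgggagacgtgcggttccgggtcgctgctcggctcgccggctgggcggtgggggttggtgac
GOLGA5: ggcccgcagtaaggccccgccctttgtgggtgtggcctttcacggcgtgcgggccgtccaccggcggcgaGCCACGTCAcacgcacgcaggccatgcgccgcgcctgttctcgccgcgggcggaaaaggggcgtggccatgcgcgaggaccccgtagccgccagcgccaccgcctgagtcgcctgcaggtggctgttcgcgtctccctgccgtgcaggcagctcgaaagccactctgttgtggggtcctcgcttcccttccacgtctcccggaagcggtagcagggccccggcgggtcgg
A match is a run of letters, and whether anything binds there was not measured.

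Other parts of the Golgi gave a setting for these values. Their lists were also written with earlier results of these data known, so the counts are a description. Of 18 other golgins and Golgi scaffold proteins, 9 were called lower and 1 higher in the libraries labelled knockdown, beside 14.7% and 9.29% over all genes tested, with a median log2 fold change of −0.55. C10orf118 (CCDC186), a coiled-coil protein of the trans-Golgi, stood at 4.70 ± 0.53 CPM in libraries labelled knockdown and 21.6 ± 4.92 CPM in libraries labelled control (−2.20 ± 0.21, adjusted p = 0.0011, edgeR). TMF1, a golgin that binds RAB6, was lower at −2.01 ± 0.29 (adjusted p = 0.00464, edgeR) and BLZF1 at −1.83 ± 0.21 (adjusted p = 0.00211, edgeR). With composition and length trends removed 7 were called lower and 1 higher, beside 11.2% and 9.33% over all genes in that fit, and the median was −0.15, while C10orf118, TMF1 and BLZF1 were still called at −1.07, −0.87 and −0.77. Leaving out a library gave 7 to 11 called lower and 0 to 2 higher. Over all genes the share called higher was itself 1.71% to 22.9% when a library was left out, and without control replicate 2 it was 25.6% lower and 22.9% higher, so counts under that setting are read beside those shares. The median adenine content of the list was 29.4%, beside 25.9% over all genes tested.

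The multisubunit tethers, which do the same task of vesicle capture without long coiled coils, were called lower in 6 (21.4%) and higher in 4 (14.3%) of 28 tested, with a median of −0.06. Over all genes tested the shares were 14.7% and 9.29%. CCDC132 (VPS50), the subunit that defines the EARP complex, was lower at −2.23 ± 0.14, TRAPPC6B at −1.19 ± 0.13 and TRAPPC8 at −1.02 ± 0.22, while TRAPPC9, also of the TRAPP complexes, was higher by 1.06 ± 0.28 and the COG subunits COG7 and COG8 by 0.66 each (± 0.15 and 0.11). With the trends removed CCDC132 and TRAPPC6B stood at −1.54 and −0.57, still called, and COG7 was no longer called (0.50). The list had 0 genes called higher when any 1 of the libraries labelled knockdown was left out, 1 without control replicate 1 and 9 without control replicate 2, a setting in which 22.9% of all genes were called higher. Of 9 COPI coat subunits, COPB1 alone (11.1%, beside 14.7% of all genes) was called lower, at −0.43 ± 0.12, and with the trends removed it stood at −0.03 and was not called. The count in that list was also 0 without any 1 of the libraries labelled knockdown or control replicate 1, and without control replicate 2 it was 2 lower and 3 higher, beside 25.6% and 22.9% of all genes.

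Of 25 Golgi small GTPases and their regulators, 5 were called higher and 1 lower, beside 9.29% and 14.7% of all genes, with a median of 0.19. GBF1, the exchange factor that activates ARF1 at the cis-Golgi, was higher by 0.89 ± 0.23, RAB1B by 0.64 ± 0.11 and ARFGAP2 by 0.57 ± 0.11. RAB1A, the close relative of RAB1B, was the one lower gene at −0.63 ± 0.13, and with the trends removed its log2 fold change was 0.03 and it was not called. Of 19 Golgi SNAREs and fusion factors, 3 (15.8%) were called lower and 1 (5.26%) higher, beside 14.7% and 9.29% of all genes, with a median of −0.05, so the share called lower was near that of all genes. SCFD1 (SLY1), which guides SNARE pairing between the endoplasmic reticulum and the Golgi, stood at 12.1 ± 1.77 CPM in libraries labelled knockdown and 71.6 ± 9.30 CPM in libraries labelled control (−2.56 ± 0.17, adjusted p = 0.000341, edgeR). The SNAREs VAMP4 and VTI1B were lower at −0.90 ± 0.22 and −0.64 ± 0.15 and BET1L was higher by 0.93 ± 0.12, and with the trends removed VAMP4 was no longer called (−0.06) and SCFD1 was still called at −1.92. Leaving out a library gave 0 to 10 of the GTPase list called higher and 0 to 5 lower, with most in both directions without control replicate 2, where 22.9% of all genes were called higher and 25.6% lower, and 1 to 4 of the SNARE list in each direction.

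Of 23 Golgi enzymes and cargo proteins, 4 (17.4%) were called lower and 1 (4.35%) higher, the median being −0.03, and the share called lower was near the 14.7% of all genes, of which 9.29% were called higher. The CMP-sialic acid transporter SLC35A1 was lower at −1.66 ± 0.35, and GALNT1, which starts O-linked glycosylation, at −1.10 ± 0.11. With the trends removed SLC35A1 was still called at −1.04 and GALNT1 was not (−0.32). The UDP-galactose transporter SLC35A2 was lower at −1.55 ± 0.35 at the very low level of 0.238 ± 0.086 CPM in libraries labelled knockdown and 0.711 ± 0.075 CPM in libraries labelled control. B4GALT1, a galactosyltransferase, was higher by 0.67 ± 0.12. Leaving out a library gave 1 to 8 called lower and 0 to 3 higher in this list, with most in both directions without control replicate 2. In that setting 25.6% of all genes were called lower and 22.9% higher.

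**Figure D5:**
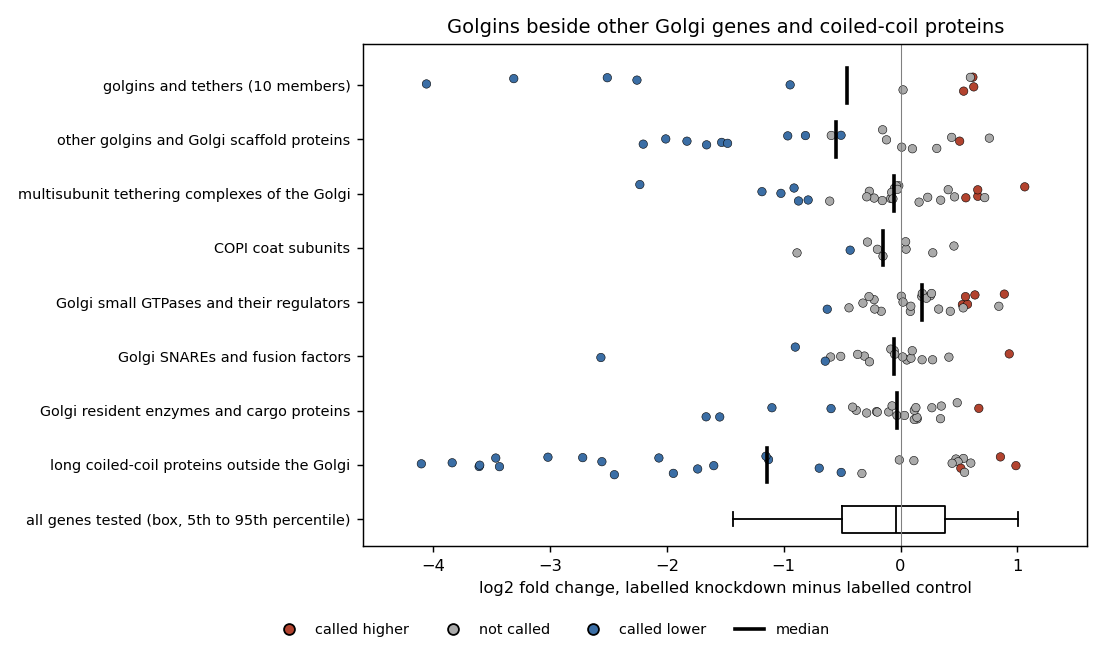
Log2 fold change (labelled knockdown minus labelled control) of each tested gene in the 10 members, in 6 lists of other Golgi genes and in long coiled-coil proteins outside the Golgi, coloured by call, with the median of each list and a box over all genes tested. The medians are −0.46 for the members, −0.55 for the other golgins, −1.14 for the coiled-coil proteins outside the Golgi and between −0.15 and 0.19 for the other lists.

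Long coiled-coil proteins that work outside the Golgi, at kinetochores, centrosomes and the cytoskeleton, held genes with log2 fold changes as low as those of GOLGA4 and GOLGB1. Of 30 such genes, 18 were called lower and 3 higher, beside 14.7% and 9.29% of all genes, with a median of −1.14. This list too was written with earlier results of these data known. With the trends taken out 14 were lower and 3 higher, beside 11.2% and 9.33% of all genes, with a median of −0.53. In that fit CENPE, CENPF and AKAP9 stood at −2.95, −2.79 and −2.52. CENPE, a kinetochore motor, was lower at −4.10 ± 0.29, CENPF, a kinetochore protein, at −3.84 ± 0.31, and AKAP9 at −3.61 ± 0.19 (adjusted p = 0.000216, edgeR). AKAP9 anchors kinases at centrosomes and also at the cis-Golgi, and the deposited table annotates it to the Golgi as well. NUMA1, a spindle pole protein, was higher by 0.99 ± 0.13, CEP164, a centriole appendage protein, by 0.86 ± 0.14 and PPFIA1, a liprin, by 0.52 ± 0.12. The lower genes CENPE, CENPF and AKAP9 had 41.4%, 36.7% and 38.5% adenine, and the higher genes NUMA1, CEP164 and PPFIA1 had 24.8%, 24.0% and 28.0%. The median of this list was 31.9% adenine and 10766 bases of exonic length. Among the 925 tested genes in the top quintile of both features, 46.2% were called lower. Leaving out a library gave 12 to 19 called lower and 2 to 7 higher. Over all genes those fits called 886 to 4784 lower and 305 to 4279 higher. The upper ends, 25.6% and 22.9% of all genes, came without control replicate 2.

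By the root mean square distance between log2 CPM profiles over the 6 libraries, each centred on its control mean, the genes most like GOLGA4 were CENPE at 0.095, CENPF at 0.215, PTGFR at 0.288, ASPM at 0.308 and AKAP9 at 0.321. PTGFR, a prostaglandin receptor, was low in all libraries, at 0.0484 CPM on average in those labelled knockdown and 1.77 CPM in those labelled control. Those most like GOLGB1 were TPR at 0.111, NELL2 at 0.154, FAM111B at 0.162, DNTTIP2 at 0.189 and the long non-coding RNA AC159540.1 at 0.207. Most of these genes lie in the top quintile of adenine content, which begins at 29.9%. CENPE, CENPF, ASPM and AKAP9 have 35.7% to 41.4% adenine and PTGFR 30.2%. TPR, a nuclear pore coiled-coil protein, has 35.2%, FAM111B 36.8% and DNTTIP2 31.2%. NELL2, a secreted glycoprotein, at 26.7% and AC159540.1 at 29.6% lie below that quintile. Among the members themselves, the closest pair was GOLGA2 and GCC1 at 0.067, followed by GOLGA1 and GCC1 at 0.081 and GOLGA1 and GOLGA2 at 0.113. GCC2 and TRIP11 were 0.184 apart, and GOLGA4 and GOLGB1 0.579.

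Exons of some members overlap those of other genes, and since the strand setting is unstated in the sources used here, reads of such pairs cannot be told apart. In GENCODE 29, exons of GCC1 overlap 410 bases of ARF5 on the other strand, and ARF5 had 6813, 7319 and 8165 counts in libraries labelled knockdown, against 5503, 5019 and 4505 in libraries labelled control. ARF5 thus had several times the counts of GCC1 in each library, and its log2 fold change was −0.17 ± 0.17 and not called. GOLGA1 shares 886 bases with SCAI and GOLGA3 shares 125 with CHFR on the same strand, and neither neighbour was called, at 0.13 ± 0.27 and 0.01 ± 0.14. The antisense gene across 446 bases of GOLGA4 had 0 counts in every library, under the floor of 3 counts. GOLGA2 has near copies, and how reads that match several genes were counted is unstated, so its value is uncertain to that extent. The 7 genes named as GOLGA2 pseudogenes, 3 of them with counts, summed to 1750, 1642 and 1791 counts in libraries labelled knockdown, against 1079, 1093 and 1310 in libraries labelled control. Of these GOLGA2P7 was not called at 0.14 ± 0.20 and GOLGA2P5 was called lower at −0.59 ± 0.16, while GOLGA2 stood at 0.63. The GOLGA6 family summed to 200, 183 and 190 counts in libraries labelled knockdown, against 253, 133 and 352 in libraries labelled control, and the GOLGA8 family to 1950, 1753 and 2041, against 2889, 2942 and 3529. These counts and those of ARF5 are raw and do not compare levels between the groups. Library totals were 36455950 to 40088993 in libraries labelled knockdown, against 24776040 to 26802182 in libraries labelled control.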

How the data were processed

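RNA from 6 HEK293 libraries was counted per gene. The deposited table held raw read counts per gene, not normalized by the authors, and RPKM values that the authors made from them: count divided by exonic length and library total reproduced 100% of RPKM values within 0.006. The submitters' processing notes name genome build hg19, edgeR 3.4.6, HTSeq 0.6.1, DESeq 1.18.0, StringTie 1, bcl2fastq 2.17.1.14 and DESeq2 1.6.3, without their roles; aligner, annotation and strand setting are not given in the sources used here. The labels' protocols name a bisulfite kit. Whether the counted libraries were bisulfite-treated, and how any converted reads were mapped, is unclear from them. Each column carried a second name, which tied it to the sample whose description holds that name; these names read as the reverse of the titles. No column of sample values was left unmapped.

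The test on counts was edgeR 4.0.16 (R 4.3.3, quasi-likelihood F test, TMM, filterByExpr, robust), with p adjusted by Benjamini-Hochberg over 17805 genes with a threshold of 0.05. No label names separate cultures, so p-values rest on a spread between 3 libraries a group that may be technical. No pair of libraries agreed within sampling noise. Log2 CPM used a prior count of 2. The members, the 7 lists of other genes and the tests were chosen with earlier results of these data known, and named genes are the 3 largest called differences of a list in each direction and the 5 genes nearest in profile to GOLGA4 and to GOLGB1. A gene named by this rule is not reported here. Promoter letters were searched on both strands. Base composition came from GENCODE 29 (GRCh38) by gene identifier for 97.2% of tested genes, that of the longest transcript, and promoters from RefSeq GRCh38.p14. These builds differ from that of the files, so the only coordinates given are the GRCh38 positions that the RefSeq table holds for the promoters shown. Alternatives were other normalizations and filters, DESeq2 1.42.0, limma-trend (limma 3.58.1) on log2(RPKM + 1) and log2(RPKM + 0.1), each library left out, the replicate number as a block, and smooth trends in composition and length removed per library (mgcv 1.9.3). The fit was tested on simulated counts with known changes and equal spread in both groups, which does not cover the unequal spread found here. Protein sequences were not used here. Floors of 3 counts cover counting error only.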

Additional observations from a re-analysis of the deposited data

How the results depend on the processing

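Over 15 alternatives, the direction and call of GOLGA4, GOLGB1, GCC2 and TRIP11 held in each one run (GCC2 and TRIP11 not run under the filter at a mean of 5 RPKM, which left 3 members lower), with log2 fold changes of −4.26 to −2.40, −3.39 to −2.40, −2.45 to −1.22 and −2.74 to −1.38, the values nearest 0 coming from limma-trend on log2(RPKM + 1), which understates low genes, or from removed trends. GOLGA5 was called in all but the fit with trends removed. GORASP2, never called, was reversed at −0.0056 without control replicate 3 (up to 0.0572 with another library left out) and at −0.18 with trends removed. Leaving out 1 library gave 0 to 4 members higher and 5 lower in each case, and over all genes 305 to 4279 higher and 886 to 4784 lower. All genes' lower count was 1649 against the plain library total, 1527 and 1530 under limma-trend on log2(RPKM + 1) and log2(RPKM + 0.1), and 1353, with 934 higher, under the filter at 5 RPKM. The median of all genes was −0.04, but 0.13 against the plain total and 0.15 on log2(RPKM + 0.1), so differences are relative to that. The cause of these shifts was not tested.

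Same-numbered libraries did not deviate together (correlations −0.0397, 0.0571 and 0.001), beside −0.0898 to 0.082 for unlike numbers. The numbers thus gave no sign of pairing, but such correlations cannot exclude it. With the replicate block the members stood at 5 lower and 2 higher (GOLGA1 0.54, not called). Over all genes 1871 were then lower and 1105 higher. Under the block the other golgins had 0 higher, COPI 0 lower, GTPases 3 higher and enzymes 2 lower.

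Over all genes, 3296 were lower and 2465 higher with DESeq2, and 2489 and 1766 with RLE factors, of 17805 each. With no filter 2145 were lower and 1767 higher of 33528. The limma-trend fits gave 2299 and 2021 higher (pseudocount 1 and 0.1). Counts of the lists are read beside these. Among the lists, COPI had 0 lower with RLE factors, plain total, no filter, both limma-trend fits and trends removed, and 2 higher with DESeq2. The GTPases had 0 lower and 3 higher against the plain total, 0 lower in both limma-trend fits and 2 lower with DESeq2. The SNAREs had 2 higher against the plain total, 3 and 2 in the limma-trend fits (pseudocount 1 and 0.1) and 2 with trends removed. The enzymes had 2 higher against the plain total, with DESeq2 and in both limma-trend fits, 2 lower and 2 higher under the filter at 5 RPKM, and 2 lower and 3 higher with trends removed. Leaving out 1 library gave 7 to 11 lower and 0 to 2 higher for other golgins, 5 to 9 and 0 to 9 for multisubunit tethers, 0 to 2 and 0 to 3 for COPI, 0 to 5 and 0 to 10 for GTPases, 1 to 4 and 1 to 4 for SNAREs, 1 to 8 and 0 to 3 for enzymes, and 12 to 19 and 2 to 7 for coiled-coil proteins outside the Golgi.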

Other observations

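The deposited table annotates 1051 genes to the Golgi apparatus or its membrane, of which 899 were tested. Of these, 141 (15.7%) were called lower and 121 (13.5%) higher in the libraries labelled knockdown, beside 14.7% and 9.29% of all genes tested, and their median log2 fold change was 0.02. Without control replicate 2 the counts were 261 lower and 288 higher, beside 25.6% and 22.9% of all genes in that fit, so the order of the directions turned. With composition and length trends removed they were 106 lower and 100 higher of 896, beside 11.2% and 9.33%. Counted from the lowest log2 fold change among the 899, GOLGA4 ranked 2, GOLGB1 5, TRIP11 11, GCC2 13 and GOLGA5 90, while GORASP2 ranked 451. The other genes among the lowest 6, named after their values were seen, were FUT9, a fucosyltransferase, at −6.25 ± 0.60, NDST3, a heparan sulfate sulfotransferase, at −3.71 ± 0.65, AKAP9 at −3.61 ± 0.19 and CCDC88A (girdin), an actin-binding coiled-coil protein, at −3.02 ± 0.26. FUT9 and NDST3 have 32.6% and 32.2% adenine, also in the top quintile.

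The members lie on 6 chromosomes whose protein-coding genes differed in their median log2 fold change. It was −0.50 over 468 tested genes of chromosome 14, which holds GOLGA5 and TRIP11, and −0.29 over 777 of chromosome 3, which holds GOLGA4 and GOLGB1. On chromosome 9, which holds GOLGA1 and GOLGA2, it was 0.28 over 578 genes. Chromosome 2 holds GCC2 at −2.26 and GORASP2 at 0.02, with a median of −0.16 over 944 genes. Members on the remaining chromosomes went the other way from the medians. The median was −0.06 over 654 genes of chromosome 7, which holds GCC1 at 0.62. It was −0.12 over 735 genes of chromosome 12, which holds GOLGA3 at 0.60.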
